A study of Rattus norvegicus with 9 samples.

Results

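The genes of vasopressin and oxytocin, and of the receptors they act on, were followed in amygdala RNA from 9 rats. Members were the array probes that carry the gene name Avp, Oxt, Oxtr, Avpr1a or Avpr1b. This gave 6 of the 45598 probes, for 4 of the 5 listed genes: 1 probe for Avp, 2 for Oxt, 2 for Oxtr and 1 for Avpr1a. No probe carried the name Avpr1b, and 2 probes that match this gene through their RefSeq accession are given separately. The genes were chosen with their OV+E2 and OV values known, so differences between the groups in these genes are given as a description, with no test.

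The study set OV+E2 rats (n = 5, replicates 1 to 5) against OV rats (n = 4, replicates 1, 2, 3 and 5). All were females of the spontaneously hypertensive rat (SHR), an inbred strain with genetic hypertension, whose ovaries were removed at 4 weeks of age. After 1 week an osmotic pump under the skin delivered 17β-estradiol in polyethylene glycol (OV+E2, 2 µg per day) or polyethylene glycol alone (OV) for 4 weeks. The rats were 9 weeks old when the amygdala of both sides was taken, and each array held the RNA of 1 rat. No ovary-intact rats and no normotensive strain are among the arrays used here. The groups therefore differ in the hormone given to hypertensive rats that had lost their ovaries before adulthood.

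Vasopressin and oxytocin are short peptides cut from longer precursors that also hold a carrier protein, neurophysin. Most of the peptide is made in the paraventricular and supraoptic nuclei of the hypothalamus, and smaller vasopressin cell groups lie in the medial amygdala and the bed nucleus of the stria terminalis, where in rats they depend on sex steroids. Both peptides act in the amygdala on social behaviour, fear and autonomic output. Their receptors in the body couple to the G protein Gq (the oxytocin receptor and the vasopressin receptors 1a and 1b) or Gs (the vasopressin receptor 2). Whole-tissue RNA cannot tell fewer cells of a type from less RNA per cell.

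Each value is the log2 of the probe's processed signal minus the log2 of its array's 75th percentile, called the relative log2 level, and a difference is OV+E2 minus OV on this scale. On 8 arrays the 75th percentile lay between 556.8 and 737.6 signal units and 29052 to 31395 probes were well above background. OV replicate 3 was dimmer, at 129.7 units with 24225 such probes, and its mean correlation with the other arrays was 0.947, against 0.980 to 0.983 for the rest. Where leaving it out turned the direction of a printed difference of a member or list gene, or moved it by over 1.5 times, both values are given. The arrays lay on 2 slides: slide 1 held OV+E2 replicates 1 and 2 with OV replicates 1, 2 and 3, and slide 2 held OV+E2 replicates 3, 4 and 5 with OV replicate 5. Of 14 amygdala markers written, 13 were tested. Among them the glutamate transporter gene Slc17a7, the GABA-synthesis gene Gad1 and the somatostatin gene Sst were well above background on every array. Rspo2 was so on 3 of 5 OV+E2 arrays and 0 of 4 OV arrays. Markers of other regions were present too, with the striatum genes Drd1 and Drd2 and the choroid plexus gene Ttr well above background on every array. Ttr averaged 8.42 ± 0.32 in OV+E2 and 7.4 ± 2.72 in OV (SD, n = 5 and 4). In OV+E2, 4 of 5 tested striatum genes were lower. For choroid plexus 6 of 6 and for thalamus 7 of 8 were higher. Whether the markers set amygdala apart from these regions was not tested.

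The probes of both hormone genes are shown because the results turn on them and they read different parts of the precursors. The Avp probe lies on chromosome 3 of rat build rn4 at chr3:118205082-118205141 (minus strand), in the part of the message that encodes copeptin, the tail of the precursor. The brighter Oxt probe lies at chr3:118194269-118194328 (plus strand), and its capitals mark the 17 bases that begin the code for oxytocin itself. The second Oxt probe lies at chr3:118194763-118194906 (plus strand), in the neurophysin part. It has 60 bases and its genomic interval has 144, so its match is interrupted in the genome. All are printed 5′ to 3′ from the deposited scanner files.
Avp probe: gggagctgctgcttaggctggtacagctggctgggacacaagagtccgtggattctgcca
Oxt brighter probe: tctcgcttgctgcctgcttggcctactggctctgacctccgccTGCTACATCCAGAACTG
Oxt second probe: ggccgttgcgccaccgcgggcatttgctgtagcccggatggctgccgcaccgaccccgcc

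The 2 hormone genes are neighbours. In RefSeq's annotation of build GRCr8, Oxt spans chr3:138235754-138236594 on the plus strand and Avp spans chr3:138246544-138248522 on the minus strand, so their ends face each other across 9949 bases with 0 annotated genes between them. The 250 bases before each start are shown because estradiol acts through receptors that bind DNA, and the Oxt window holds several letters of the kind those receptors read. The capitals in the Oxt window mark TGACC or its reverse complement GGTCA, the half-site of an oestrogen response element. Both windows are RefSeq sequence of GRCr8, on the gene's own strand: chr3:138248523-138248772 for Avp and chr3:138235504-138235753 for Oxt.
Avp upstream: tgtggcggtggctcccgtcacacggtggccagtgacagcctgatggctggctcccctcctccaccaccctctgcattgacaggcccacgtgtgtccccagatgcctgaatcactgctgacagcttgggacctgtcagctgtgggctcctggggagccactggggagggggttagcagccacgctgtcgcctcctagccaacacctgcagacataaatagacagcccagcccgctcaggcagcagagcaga
Oxt upstream: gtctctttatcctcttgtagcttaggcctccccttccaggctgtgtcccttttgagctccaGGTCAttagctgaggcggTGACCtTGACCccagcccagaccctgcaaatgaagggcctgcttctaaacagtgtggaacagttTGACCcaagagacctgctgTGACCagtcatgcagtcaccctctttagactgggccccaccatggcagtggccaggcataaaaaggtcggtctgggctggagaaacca

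The Oxt window holds 5 half-sites, which begin between 189 and 88 bases before the start of the gene. A search of both strands found at least 1 in 35.4% of the 33469 rat windows of this length, and 5 or more in 0.0508%. The half-sites at 171 and 165 bases stand in the same direction with 1 base between them. The Avp window holds 0, as do those of Avpr1a and Avpr1b, and that of Oxtr holds 2. The full palindrome GGTCANNNTGACC, which contains the half-site on both strands, has 0 matches in the windows of all 5 genes and occurs in 0.0239% of windows. In the Avp window TGANTCA, the motif of activator protein 1, occurs 1 time (6.34% of windows hold it), the E-box CANNTG 4 times (65.5% hold at least 1 and 3.20% hold 4 or more) and TGACG, the half-site of the cAMP response element, 1 time (18.2%). These matches describe letters and were not measured as binding.

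Avp, which encodes the vasopressin precursor, had a lower signal in OV+E2 amygdala than in OV amygdala. In OV+E2 replicates 1 to 5 its relative log2 level was 4.16, 4.50, 3.84, 4.81 and 4.27, and in OV replicates 1, 2, 3 and 5 it was 4.76, 5.59, 5.72 and 5.50. The means were 4.31 ± 0.36 in OV+E2 and 5.39 ± 0.43 in OV (SD, n = 5 and 4), a difference of −1.08 (SE 0.24), so that OV+E2 stood at 47.4% of OV. The groups overlapped in 1 pair of rats: OV+E2 replicate 4, the highest of its group, stood just above OV replicate 1, the lowest of its own. The probe was well above background on 9 of 9 arrays and saturated on 0. Without OV replicate 3 the difference was −0.97, within slide 1 it was −1.03 and within slide 2 −1.19.

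Oxt, which encodes the oxytocin precursor, was lower in OV+E2 on both of its probes. On the brighter probe the OV+E2 rats had 2.10, 2.35, 1.71, 2.70 and 1.87, and the OV rats 2.38, 3.05, 3.46 and 2.97. The means were 2.15 ± 0.39 in OV+E2 and 2.96 ± 0.45 in OV (SD, n = 5 and 4), a difference of −0.82 (SE 0.26) that puts OV+E2 at 56.7% of OV. The same 2 rats overlapped as for Avp, OV+E2 replicate 4 above OV replicate 1.
On the second probe the OV+E2 rats had 1.14, 1.47, 0.65, 1.99 and 0.99, and the OV rats 1.56, 2.61, 2.86 and 2.23, a difference of −1.07 (SE 0.32). Again OV+E2 replicate 4 was the highest of its group and OV replicate 1 the lowest of its own, and no other pair crossed. Without OV replicate 3 the differences were −0.65 on the brighter probe and −0.89 on the second, and on the second probe slides 1 and 2 gave −1.04 and −1.03.

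**Figure D1:**
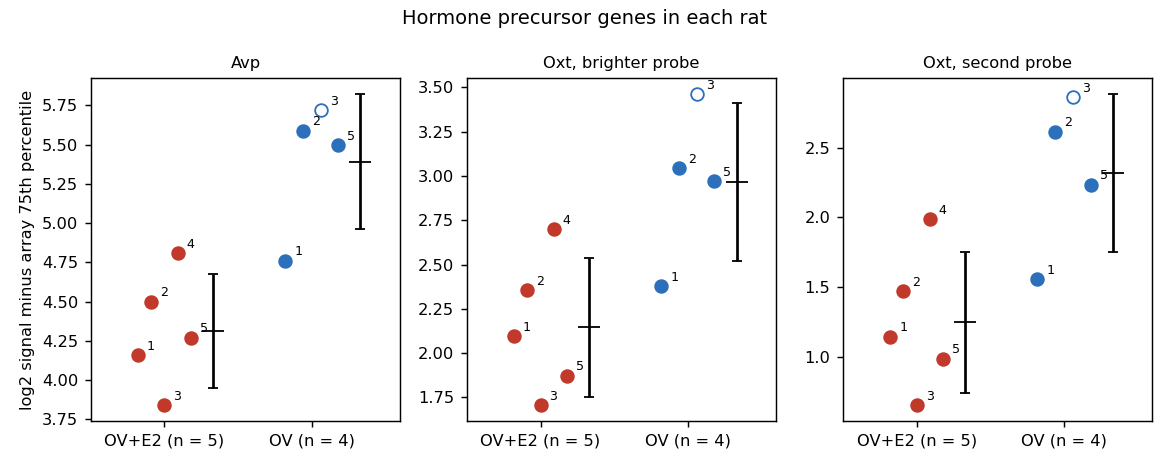
Relative log2 level of Avp and of both Oxt probes (y axis, log2 signal minus the array's 75th percentile) in each OV+E2 rat (red, left) and OV rat (blue, right), numbered by replicate, with the mean and SD as a black bar and OV replicate 3 drawn hollow. On each probe OV+E2 replicate 4 stands above OV replicate 1, and all other OV+E2 rats lie below all OV rats.

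No probe on the array passed the test over all probes. In limma's fit over 30215 tested probes 0 (0%) passed an adjusted p of 0.05, the smallest being 0.156, so 0 of the 6 member probes passed. At an unadjusted p of 0.05, 3 member probes were lower in OV+E2 (7.17% of all tested were) and 1 was higher (3.21% of all tested were). The 3 lower ones are Avp and both Oxt probes, and the same 3 were lower by a log2 difference of 0.5 or more, as were 9.90% of all tested probes. In 0 of 6 were all OV+E2 arrays below all OV arrays (4.01% of probes with complete values) and in 0 of 6 were they all above (2.89%). Since the genes were chosen on this contrast, nothing is read from these counts.

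Within each group, a rat high in Avp was high in Oxt. Ranked from high to low, the 9 rats stood in the same order for Avp and both Oxt probes except that OV+E2 replicates 1 and 5 exchanged places. OV replicate 3 was the highest and OV+E2 replicate 3 the lowest on all of these probes. After each group's mean was subtracted, which removes the contrast the genes were chosen on, the deviations of Avp and brighter-probe Oxt correlated with Pearson's r = 0.948 and Spearman's rho = 0.967 (n = 9 rats, two-sided exact permutation within groups, p = 0.00104 for each, adjusted p = 0.00312 over 3 relations for Pearson's r and for Spearman's rho). Leaving out the 2 rats farthest from the median of Avp, OV replicate 1 and OV+E2 replicate 3, left r at 0.895. With slide means removed as well r was 0.960, and each slide alone held fewer than 6 arrays. Leaving out 1 rat at a time gave 0.920 to 0.974.

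The second Oxt probe, in the neurophysin part where the precursors of both hormones are alike, had r = 0.967 with Avp. The brighter probe, whose last 17 bases begin the code for oxytocin itself, had the 0.948 above. The Oxt probes correlated with each other at r = 0.983. Cross-hybridisation between the genes was not tested for either Oxt probe. The Avp signal minus the brighter Oxt signal on the log2 scale averaged 2.17 ± 0.13 in OV+E2 and 2.43 ± 0.13 in OV (SD, n = 5 and 4), and minus the second Oxt signal 3.07 ± 0.18 in OV+E2 and 3.07 ± 0.19 in OV. Within a group, then, the SD of either gene's level was larger than that of this difference, while the probes do not give the same answer on whether the difference moved between groups.

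The genes nearest to the pair on chromosome 3 did not share this pattern to the same degree. Mrps26, a mitochondrial ribosomal protein gene beyond Oxt, averaged 4.04 ± 0.09 in OV+E2 and 4.12 ± 0.21 in OV, and its deviations had r = 0.372 with those of Avp (0.122 without OV replicate 3). Ubox5, a ubiquitin ligase gene beyond Avp, averaged −0.24 ± 0.06 in OV+E2 and −0.04 ± 0.22 in OV, with r = 0.302 (−0.119 without OV replicate 3). The correlations of this paragraph and the next are descriptions over 9 rats whose arrays share scaling and slides.

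Among 14988 named genes, ranked by the lower of their correlations over 9 arrays and over the 8 without OV replicate 3, Zfp41 was the one most like Avp in its deviations (r = 0.963 and 0.980). Rbm41 (0.960 and 0.957), Adamts3 (0.958 and 0.954), Ift57 (0.954 and 0.951) and Oxt itself followed, with Syt14 (0.948 and 0.946) close behind Oxt. The group difference of Zfp41 was −0.01 (SE 0.09) and that of Rbm41 −0.07 (SE 0.17), each smaller than its error. For Oxt the most alike were Pcf11 (0.963 and 0.964), Gucy1a2 (0.972 and 0.962) and Isg20l2 (0.956 and 0.962), then Avp, Adamts3 (0.931 and 0.945) and Emp2 (0.931 and 0.910). Adamts3, a secreted protease gene, stood on both lists. In all, 16 genes, Oxt among them, had both correlations with Avp over 0.9. For Oxt 9 genes did, Avp among them, so likeness of this degree was not limited to the pair.

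Because the hypothalamus, which borders the amygdala, is the main source of both messages, its marker genes were set beside them. Of 20 written markers, 19 were on the array and 12 were tested. Of these, 9 were lower and 3 higher in OV+E2, and 0 passed the adjusted p. The median difference was −0.10 (0.03 over 15001 named genes, 45.5% of which were lower). Without OV replicate 3 the counts were 8 lower and 4 higher and the median −0.06. Melanin-concentrating hormone (Pmch) ranged from 3.62 to 4.99 in OV+E2 and 4.10 to 5.60 in OV, with a difference of −0.21 (SE 0.36), or −0.39 without OV replicate 3. Orexin (Hcrt), another peptide of the lateral hypothalamus, differed by −0.21, or −0.08 without that array. Pro-opiomelanocortin (Pomc) differed by −0.49 (−0.34 without it) and the transcription factor Nkx2-1 by −0.27 (−0.29). The 3 that were higher are gonadotropin-releasing hormone (Gnrh1) by 0.45 (0.39 without that array), thyrotropin-releasing hormone (Trh) by 0.20 with or without it, and Arnt2 by 0.08 (−0.02). Otp, a factor needed in mice for the vasopressin and oxytocin neurons of the hypothalamus, was well above background on 0 arrays, as were Rax, Six6, Hmx2 and Fezf1, while Sim1, which acts with Otp, was at −0.04, or −0.35 without OV replicate 3.

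The mean level of the 12 markers was −1.13, −1.07, −1.30, −1.04 and −1.18 in OV+E2 replicates 1 to 5, and −1.27, −0.85, −1.06 and −1.09 in OV replicates 1, 2, 3 and 5. The groups overlapped over most of this range, and the lowest rat of each group for the markers, OV+E2 replicate 3 and OV replicate 1, was also its lowest for Avp and Oxt. Within groups Avp followed the marker mean with r = 0.823 and rho = 0.783 (n = 9, two-sided exact permutation p = 0.0181 and 0.0292, adjusted p = 0.0272 and 0.0292 over 3 relations). For Oxt r was 0.727 and rho 0.800 (exact permutation p = 0.0493 and 0.0264, adjusted p = 0.0493 and 0.0292). Here too the arrays share scaling and slides. The mean of no other marker list was set beside Avp or Oxt, so whether such relations are particular to hypothalamic genes was not tested. With the 2 rats farthest from the median of the hormone gene left out, r fell in both relations. It was 0.404 for Avp (without OV replicate 1 and OV+E2 replicate 3) and 0.387 for Oxt (without OV replicate 1 and OV+E2 replicate 4). In this scaling each relation leaned on those rats, though leaving out extreme rats also narrows the range behind r. With all 9 rats both relations missed the threshold after quantile normalization, at r = 0.514 for Avp (exact permutation p = 0.196) and 0.346 for Oxt (exact permutation p = 0.408). That of Avp also missed it after normexp (r = 0.548, exact permutation p = 0.168), and that of Oxt did not (r = 0.671, exact permutation p = 0.033). In the authors' own deposited values r was 0.834 for Avp (exact permutation p = 0.00451) and 0.858 for Oxt (exact permutation p = 0.000694). Without OV replicate 3 it was 0.877 and 0.842 (exact permutation p = 0.00833 for each).

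Gene by gene, 10 of the 12 markers had a positive correlation with Avp, from Pomc at 0.650 and Pou3f2 at 0.640 down to Arnt2 at −0.672. Pmch had 0.580 over 9 arrays and 0.852 without OV replicate 3. The summed level of the whole marker list ran from 4.67 to 5.48 in OV+E2 and from 4.85 to 5.95 in OV. The part of the dissection in the lower Avp and Oxt was not tested. For 3 of the 10 marker lists the sums did not overlap between groups, and their part was not tested either. Blood genes ran from 6.64 to 7.13 in OV+E2 and from 7.23 to 7.33 in OV. Microglial genes ran from 3.66 to 3.95 in OV+E2 and from 3.96 to 5.02 in OV, and astrocyte genes from 5.68 to 5.89 in OV+E2 and from 5.94 to 5.99 in OV. A sum is led by its brightest genes. Of the tested genes, 6 of 7 for blood, 3 of 4 for microglia and 3 of 4 for astrocytes were lower in OV+E2. The others were Hbb at 0.11 (−0.19 without OV replicate 3), Csf1r at 0.04 (−0.09) and Aldh1l1 at 0.13 (0.02). At an unadjusted p of 0.05 in limma's fit, 5 of 7 blood, 3 of 4 microglial and 0 of 4 astrocyte genes were lower. Of all tested probes 7.17% were. Of single probes with complete values, 4.01% had all OV+E2 arrays below all OV arrays. That share was not computed for sums of several genes. The pituitary hormone genes Prl, Gh1 and Tshb were well above background on 0 arrays.

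**Figure D2:**
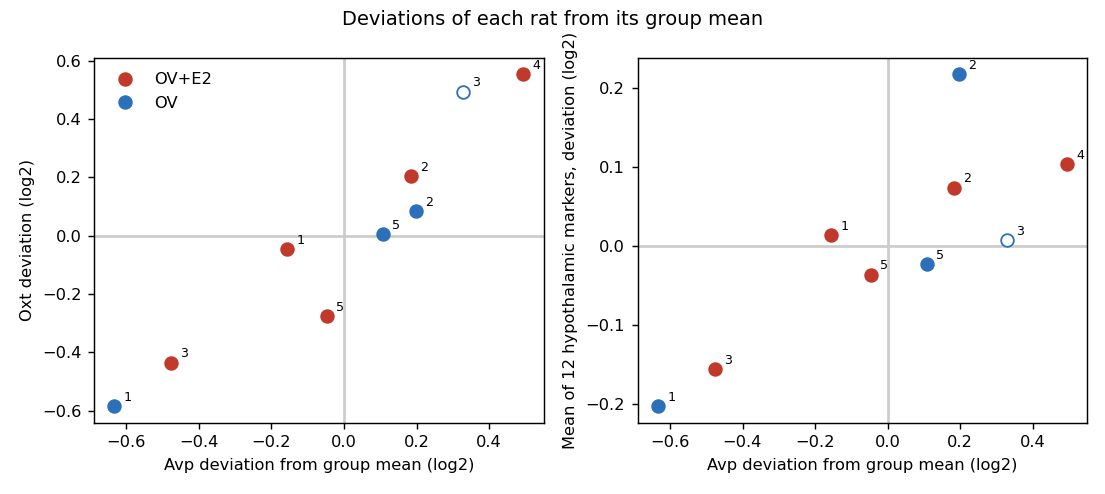
Deviation of each rat from its group mean in Avp (x axis, log2) against its deviation in brighter-probe Oxt (left panel, y axis, log2) and in the mean of the 12 tested hypothalamic markers (right panel, y axis, log2), with OV+E2 rats in red, OV rats in blue, replicate numbers beside the points and OV replicate 3 hollow. Avp and Oxt lie along 1 line (r = 0.948), and the marker means follow less closely (r = 0.823), with OV replicate 1 and OV+E2 replicate 3 at the low end of both panels.

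The receptor genes were dim, and none of Oxtr, Avpr1a and Avpr1b had a difference that kept its sign under all the processing run. Oxtr, the gene of the oxytocin receptor, has a brighter probe at chr4:148311826-148311885 and a dimmer one at chr4:148314115-148314174 (both rn4, minus strand). On the brighter probe the OV+E2 rats had processed signals of 40.25, 26.22, 41.41, 40.26 and 41.06, and OV replicates 1, 2, 3 and 5 had 30.87, 19.91, 2.427 and 32.31. All OV+E2 rats but replicate 2 lay above all OV rats, and OV replicate 3 was the only array of the 9 on which this probe was not well above background. As relative log2 levels the means were −4.18 ± 0.23 in OV+E2 and −4.84 ± 0.63 in OV (SD, n = 5 and 4), a difference of 0.67 (SE 0.27) that was 0.37 without OV replicate 3 and −0.22 after normexp background correction. Normexp was run with an offset of 50 signal units, above every processed signal of this probe. No other processing gave this probe a negative difference, and the part of the offset was not tested.

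The dimmer Oxtr probe went the other way, at −5.07 ± 0.46 in OV+E2 and −4.64 ± 1.17 in OV (SD, n = 5 and 4), a difference of −0.43 (SE 0.50). It was well above background on 3 of 5 OV+E2 arrays and 2 of 4 OV arrays. Its OV mean rests on OV replicate 3, at −2.93, while the other OV rats had −5.38, −4.81 and −5.45; without that rat the difference was 0.14. Within slide 1 it was −1.13 and within slide 2 0.66. The deviations of the 2 Oxtr probes correlated with each other at −0.811 over 9 arrays and −0.163 over 8, against 0.983 for the 2 Oxt probes. A further probe for an Oxtr fragment, outside the members because it carries another name, was well above background on 0 arrays.

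Avpr1a encodes the main vasopressin receptor of the brain, and its probe lies at chr7:62229240-62229298 (rn4, plus strand). The processed signals were 42.24, 41.39, 37.59, 29.32 and 42.17 in OV+E2 rats and 54.72, 32.4, 3.505 and 42.34 in OV rats. The OV+E2 values lay inside the OV range, and 3.505 belongs to OV replicate 3, where the probe was not well above background. The relative levels averaged −4.14 ± 0.23 in OV+E2 and −4.23 ± 0.68 in OV (SD, n = 5 and 4), a difference of 0.09 (SE 0.29). It was −0.24 (SE 0.15) without OV replicate 3, −0.39 after normexp, 0.37 within slide 1 and −0.33 within slide 2, so its direction was not settled.

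Avpr1b, the vasopressin receptor known from pituitary corticotrophs and hippocampal area CA2, was read through 2 probes that match by accession and overlap by 33 bases. The brighter of them, at chr13:44547210-44547269 (rn4, plus strand), had processed signals of 25.4, 19.89, 36.64, 62.56 and 52.18 in OV+E2 rats and 16.25, 26.39, 5.468 and 14.13 in OV rats. It was well above background on 4 of 5 OV+E2 arrays and 1 of 4 OV arrays, and OV+E2 replicates 3, 4 and 5, which share slide 2, were the highest. The means were −4.23 ± 0.64 in OV+E2 and −4.98 ± 0.58 in OV (SD, n = 5 and 4), a difference of 0.75 (SE 0.37). Within slide 1 the difference was −0.06 and within slide 2, against its single OV array, 1.71. The other probe was well above background on 0 arrays.

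**Figure D3:**
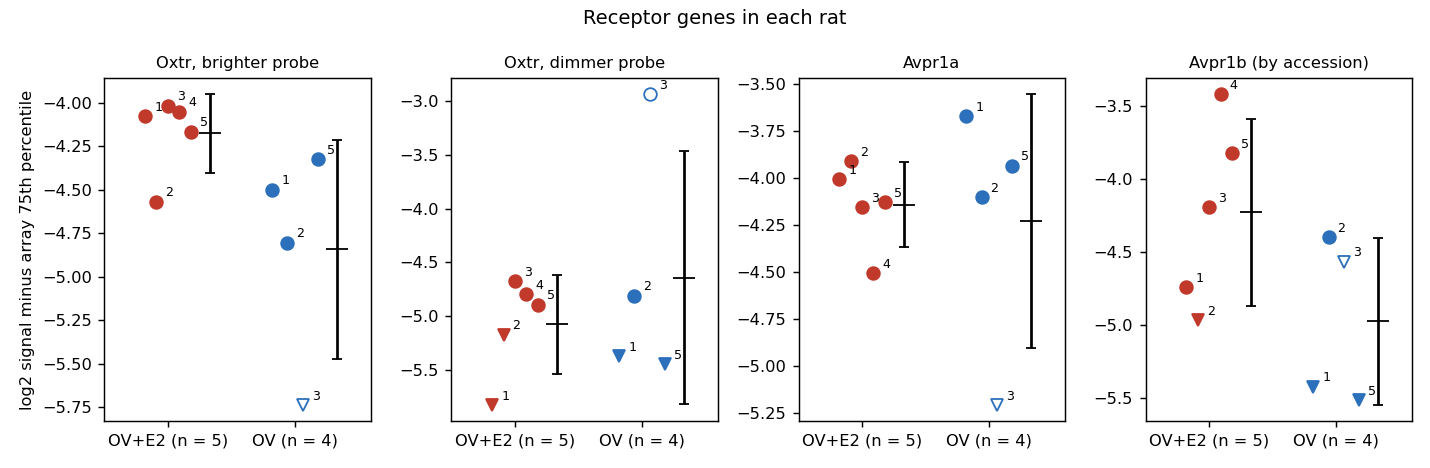
Relative log2 level of both Oxtr probes, Avpr1a and the accession-matched Avpr1b probe (y axes, log2 signal minus the array's 75th percentile, each panel on its own scale) in OV+E2 rats (red, left) and OV rats (blue, right), numbered by replicate. Triangles mark arrays on which the probe was not well above background, black bars are mean and SD, and the hollow point is OV replicate 3, the lowest OV value for Avpr1a and the brighter Oxtr probe and the highest for the dimmer Oxtr probe.

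Set side by side, the hormone genes kept their direction where the receptor genes did not. Over 14 ways of processing, counting the omission of OV replicate 3 only together with another change, the difference of Avp lay between −1.20 and −0.93. Over 15, of which 1 took the mean of both Oxt probes and the rest the brighter probe, that of Oxt lay between −0.96 and −0.65. That of brighter-probe Oxtr lay between −0.22 and 1.15, that of Avpr1a between −0.39 and 0.37 and that of Avpr1b between −0.13 and 1.71. The ranges cross 0 for each receptor gene.

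**Figure D4:**
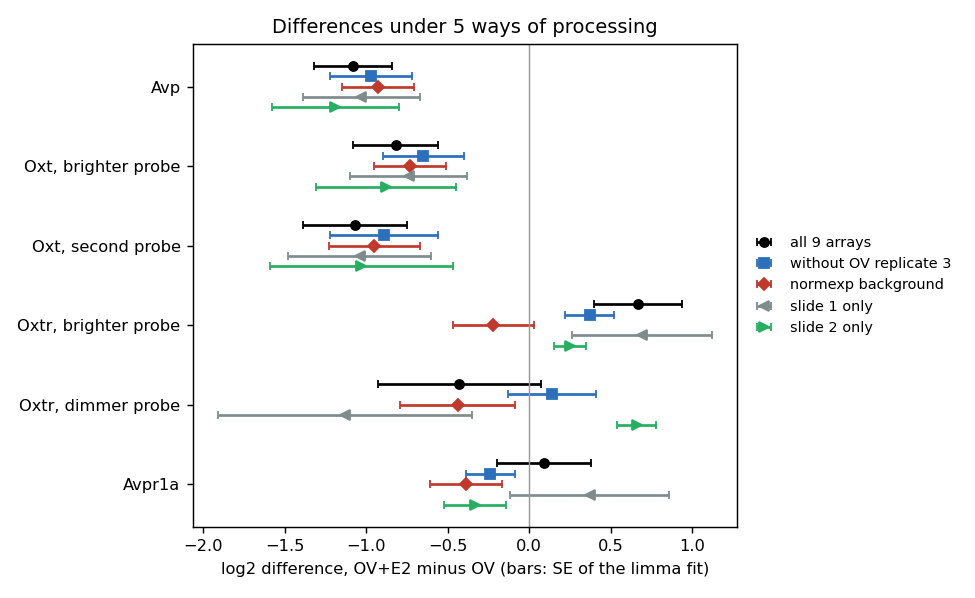
Log2 difference, OV+E2 minus OV (x axis), of each member probe (rows) with all 9 arrays, without OV replicate 3, after normexp background correction, and within slide 1 or slide 2 alone, with the SE of the fit as bars. Avp and both Oxt probes stay left of 0 in all 5, and the Oxtr and Avpr1a probes lie on both sides of it.

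The genes that make, break down and carry the signal of these peptides were taken from 6 lists written with earlier results of these arrays known, and 0 members of any list passed the adjusted p in limma's fit. For processing of the precursors and packing into granules, 11 of 11 genes were tested, 2 lower and 9 higher in OV+E2, with a median of 0.20. Over 15001 named genes 45.5% were lower. At an unadjusted p of 0.05 in limma's fit, 0 of the 11 were lower and 2 higher, against 7.17% and 3.21% of all tested probes. Secretogranin 2 (Scg2) was higher by 0.28 (SE 0.10), at 4.83 ± 0.08 in OV+E2 and 4.55 ± 0.17 in OV, and Cadps, which primes dense-core vesicles for release, by 0.20. The convertase Pcsk1 was higher by 0.26, and carboxypeptidase E (Cpe) by 0.63, or 0.16 without OV replicate 3. Without that array 11 of 11 were higher and the median was 0.10 (0.01 over all tested probes).

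Of 7 genes of peptide breakdown and release, all tested, 1 was lower and 6 higher, with a median of 0.19, or 0.09 without OV replicate 3. Lnpep, the aminopeptidase that cleaves oxytocin and vasopressin, was higher by 0.68, or 0.16 without that array. Cd38, which takes part in oxytocin release in mice, was higher by 0.48, or 0.02 without that array. The aminopeptidase Enpep was higher by 0.26 (0.12 without that array) and the peptidase Ace by 0.19 (0.36). Of these 7, 0 passed even the unadjusted p.

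Downstream of the receptors, 17 of 19 genes of Gq and calcium signalling were tested, 5 lower and 12 higher, with a median of 0.07. At an unadjusted p of 0.05, 2 were lower and 1 higher, against 7.17% and 3.21% of all tested probes. Plcb3, a phospholipase C that Gq activates, differed by −0.91 (SE 0.22), at −2.49 ± 0.32 in OV+E2 and −1.58 ± 0.37 in OV (SD, n = 5 and 4) and by −0.81 without OV replicate 3. Grk2, a kinase that desensitises receptors, was at −0.49 (−0.28 without that array), the G protein gene Gna11 at 0.40 (0.25) and Plcb4 at 0.52 (0.29).

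On the Gs side, 5 of 5 genes were tested, 2 lower and 3 higher, with a median of 0.05. The kidney-type vasopressin receptor gene Avpr2 was dim but well above background on 9 of 9 arrays, at −3.37 ± 0.39 in OV+E2 and −3.42 ± 0.55 in OV (SD, n = 5 and 4). Its difference of 0.05 (SE 0.28) was 0.31 without OV replicate 3, −0.46 within slide 1 and 0.65 within slide 2. The water channel Aqp2, which vasopressin controls in kidney, was at 0.55 (0.75 without that array) and Aqp4, the astrocyte water channel, at −0.13 (−0.19). The cyclase Adcy6 was at 0.25 (0.06 without it) and the G protein gene Gnas at −0.35 (−0.16).

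Of 10 genes of oestrogen action 8 were tested, 4 lower and 4 higher, with a median of 0.00; without OV replicate 3, 2 were lower and 6 higher, with a median of 0.08. Esr1, the gene of oestrogen receptor alpha, was at −0.07, or −0.28 without OV replicate 3, and Esr2, the beta receptor found in hypothalamic oxytocin and vasopressin neurons of rats, was well above background on 1 of 5 OV+E2 arrays and 0 of 4 OV arrays and was not tested. The oestrogen-induced genes Pgr and Greb1 were higher by 0.29 (SE 0.21) and 0.18 (SE 0.14), or 0.33 and 0.32 without that array, and neither passed the unadjusted p. The coactivator Ncoa2 differed by −0.85 (SE 0.35), or −0.45 without OV replicate 3, and the membrane oestrogen receptor gene Gper1 was at −0.21, or 0.04 without that array.

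Of 14 genes that share neurons with the hormones or form those neurons, 13 were tested, 6 lower and 7 higher, with a median of 0.01, or −0.02 without OV replicate 3. Galanin (Gal), a peptide that vasopressin cells of the medial amygdala also make in rats, was higher by 0.68 (SE 0.16), at 1.27 ± 0.13 in OV+E2 and 0.59 ± 0.33 in OV (SD, n = 5 and 4), the opposite direction to Avp. It was at 0.57 without OV replicate 3. Tyrosine hydroxylase (Th) differed by −0.61 (SE 0.27), prodynorphin (Pdyn), which accompanies vasopressin in the supraoptic nucleus, by −0.29, and the glutamate transporter gene Slc17a6 was higher by 0.31.

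**Figure D5:**
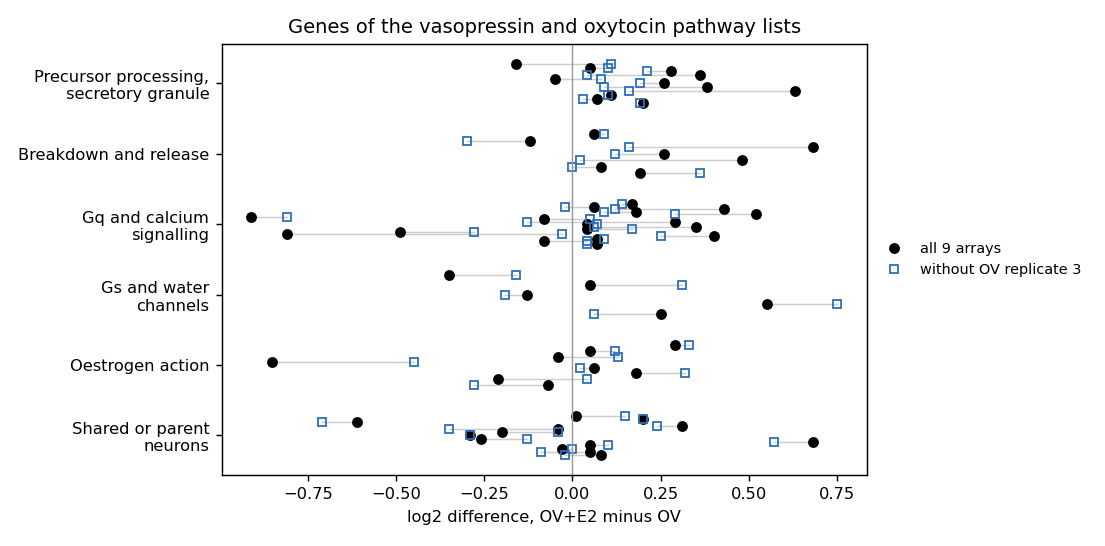
Log2 difference, OV+E2 minus OV (x axis), of each tested gene of the 6 lists (rows) with all 9 arrays (black circles) and without OV replicate 3 (blue squares), joined by a grey line for each gene. Most genes lie within 0.5 of 0, and Plcb3, Th, Gal and Aqp2 stay more than 0.5 from 0 with either set of arrays. Several of the precursor-processing and breakdown genes move towards 0 without OV replicate 3.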

How the data were processed

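Values came from 9 scanner files of Agilent 1-colour rat arrays, 1 rat per array, hybridised from 200 ng of RNA. The processed signal is an intensity after background subtraction, deposited by the authors. Feature Extraction 10.7.3.1 and build rn4 are given per the file headers, while the submitters' processing notes list version 9.1 of that program. The authors' own deposited value table, also an intensity per probe, served as an alternative, with its scaling not stated in labels or headers. For OV replicate 3 its column differs from the scanner file (SD of the log2 ratio 1.00, against 0.00417 to 0.0307 for the other arrays).

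The 4259 control spots of 62976 and spots marked as outliers were left out, and spots of a probe were averaged. Log2 signals were scaled to each array's 75th percentile. A probe was tested if well above background on at least 4 arrays. The comparison used limma 3.58.1 under R 4.3.3, with group as the only term and Benjamini-Hochberg adjustment over 30215 probes. The fit was tested on simulated data. Relations across rats, ranks and motif searches were computed with Python 3.11.15, numpy 2.4.6, pandas 2.3.3 and scipy 1.17.1, and plots with matplotlib 3.10.9. For lists, the brightest of a gene's probes stood for the gene.

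Named were all member probes, up to 4 genes of each list with the smallest unadjusted p, the 5 genes most like Avp and Oxt, and neighbours by position. Hypothalamic markers, Esr1, Esr2 and the marker lists were named after their values were seen. The members and lists were chosen with earlier results of these data known. The labels give replicate numbers in both groups, but same-numbered rats did not deviate together (r = 0.17, −0.0761, −0.011 and 0.105), so numbers were not treated as pairs. Of the promoter, protein and miRNA tables, only promoters were used, with RefSeq's build GRCr8. Whether a probe lies in an exon or a UTR is not annotated in the files. The number of arrays limits the precision.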

Additional observations from a re-analysis of the deposited data

Results flagged for a closer look

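On the brighter Oxtr probe OV+E2 replicate 2 stood apart from its group, at a relative log2 level of −4.57 where the next rat was at −4.17, a gap of 0.728 of the group's range. Chance flags about 1 in 20 groups examined in this way, and the reason was not tested.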

How the results depend on the processing

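Avp and Oxt stayed lower in OV+E2 under all alternatives run, and leaving out 1 rat at a time gave −1.29 to −0.96 for Avp and −1.01 to −0.65 for Oxt. The count of called probes, 0 in limma's fit (969 higher and 2167 lower at an unadjusted p of 0.05), became 9 with no filter on dim probes (0 higher, 9 lower), 1126 within slide 2, which has a single OV array, 3506 with array weights, 69 in the authors' values and 1 in those values without OV replicate 3. It was 1 with slide as a block without OV replicate 3, and 0 to 1 leaving out 1 rat at a time (1 without OV replicate 1 and 1 without OV replicate 3). For the receptors, Oxtr moved to −0.22 with normexp, 1.15 with quantile normalization and 0.12 as the mean of its probes, Avpr1a to −0.39 with normexp, and Avpr1b to −0.13 with normexp, −0.06 within slide 1 and 1.71 within slide 2; the cause was not tested. Leaving out 1 rat gave 0.37 to 0.84 for Oxtr, −0.24 to 0.27 for Avpr1a and 0.55 to 0.94 for Avpr1b. The median difference, OV+E2 minus OV, over all tested probes was −0.11 with normexp and 0.11 with median scaling, against 0.00113 in limma's fit. Avp and Oxt correlated at 0.908 to 0.960 across settings. The relation to hypothalamic markers lost its call for Avp with quantile normalization (r = 0.514, exact permutation p = 0.196), with normexp (0.548, p = 0.168) and without OV replicate 1 or OV+E2 replicate 3 (p = 0.0556 and 0.0729), with r from 0.676 to 0.949 leaving out 1 rat. For Oxt it lost its call with quantile normalization (0.346, exact permutation p = 0.408) and when any 1 rat other than OV replicates 2 and 3 was left out (p from 0.059 to 0.196), with r from 0.546 to 0.924. With a replicate block 0 probes were called, Avp was at −1.20 and Oxt at −0.96, and no call changed. The list counts without OV replicate 3 were chosen after seeing the data. Dim signal limits the receptor genes, which lie near background.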
